A study of Homo sapiens with 6 samples.

Results

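The lysyl oxidases are a family of 5 secreted enzymes, LOX and the LOX-like proteins LOXL1, LOXL2, LOXL3 and LOXL4. All 5 were found by gene symbol among the 25987 named genes of the deposited table, and 4 of the 5 passed the filter on low counts. RNA came from 786-O cells, an established line of human clear cell kidney cancer in which VHL does not work. The label gives its genotype as wild type and no gene was altered. The cells of the 3 copper samples had been adapted to copper by long exposure, at 30 uM in the series text and at 30, 31 and 32 uM in the labels of replicates 1, 2 and 3. Copper sulfate had been bound to serum proteins before the serum went into the medium, and the 3 control samples received serum handled alike without copper. All 6 were grown in DMEM/F12 with serum, and the results concern 1 cell line.

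Lysyl oxidases carry copper in their active site, together with a quinone made from a lysine and a tyrosine of the enzyme itself, and they receive the metal in the secretory pathway, where the pump ATP7A delivers it. Outside the cell they oxidise lysines of collagen and elastin to aldehydes, which then form the cross-links that stiffen matrix. LOX and LOXL2 are known to be induced through hypoxia-inducible factor, which stays active in cells without VHL, and LOXL2 is known to act on collagen IV of basement membranes.

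The stretch before a gene's start is shown for LOX and LOXL1 because the former is the member with the largest difference between groups among those tested, and the latter, at a similar level, serves as its contrast. Each is the 250 bases before the most upstream RefSeq start (GRCh38.p14), read 5′ to 3′ on the gene's strand, with matches in capitals. The motifs searched on both strands were the hypoxia response core (ACGTG and GCGTG), the metal response element core (TGCACNC and TGCGCNC) and the antioxidant response element core (TGACNNNGC).
LOX, chr5:122078260-122078509, minus strand: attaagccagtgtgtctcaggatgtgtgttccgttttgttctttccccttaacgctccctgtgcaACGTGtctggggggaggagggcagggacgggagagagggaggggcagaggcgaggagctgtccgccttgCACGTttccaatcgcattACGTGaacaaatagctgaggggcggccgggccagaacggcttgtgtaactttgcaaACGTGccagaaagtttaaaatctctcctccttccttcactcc
LOXL1, chr15:73926212-73926461, plus strand: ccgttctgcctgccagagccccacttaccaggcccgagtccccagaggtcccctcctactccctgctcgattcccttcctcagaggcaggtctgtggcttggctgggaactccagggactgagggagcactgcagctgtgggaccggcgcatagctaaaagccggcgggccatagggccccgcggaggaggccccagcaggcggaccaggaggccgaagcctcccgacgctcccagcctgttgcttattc

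The LOX window held 4 matches to the hypoxia response core, 185, 116, 98 and 42 bases before the start at their 5′ ends, none overlapping another. The core occurred at least once in 43.1% of the 27305 windows of that length, 1 per gene, and at least 4 times in 3.21% of them. The windows of LOXL1, LOXL3 and LOXL4 held 0 matches, and that of LOXL2 was not analysed here. The metal response core, found in 24.7% of all windows, and the antioxidant core, found in 11.1%, had 0 matches in the 4 windows searched. A match gives only the letters present in this window. The LOX start used, 122078259, lies upstream of 122077174, where the counted LOX gene begins on its strand. The same holds for LOXL3 (74553942 against 74549526), so these windows do not adjoin the counted genes.

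Libraries held from 16301772 to 25079913 counts. Replicate 3 stood apart from replicates 1 and 2 in both groups: the first principal component of log2 CPM (counts per 1000000 counts, on the scaled library size) carried 57.9% of the variance and separated it. The labels do not say that the samples were separate cultures, so p-values measure only the spread between these samples. Of 9 genes expected in a renal carcinoma line, 8 passed the filter, the renal lineage factor PAX8 among them, while the hypoxia target CA9 stayed at or below 0.122 CPM. Leukocyte markers summed to at most 0.943 CPM and endothelial markers to at most 2.31 CPM in any library. The 9 fibroblast markers summed to 11.7 to 14.6 CPM in copper and 13.2 to 20.9 CPM in control. Of these, 6, DCN and PDGFRA included, stayed under 1 CPM in every library. The rest were LUM, at a mean of 3.47 CPM in copper and 2.40 in control, PDGFRB (4.37 and 5.90) and COL1A1 (3.42 and 6.53). COL1A1 is also among the substrate genes below.

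One member supplied nearly all lysyl oxidase RNA of these cells. To compare genes, counts were divided by the length of the longest GENCODE 29 basic transcript, which gives counts per kilobase per 1000000 counts. On that scale LOXL2 stood at 254 ± 30.2 (SD, n = 6 libraries), above 98.6% of the genes tested. LOX stood at 12.0 ± 3.13 and LOXL1 at 10.0 ± 1.60, above 59.4% and 54.8% of tested genes. LOXL3 was at 0.499 ± 0.145, above 8.44%, and LOXL4 at 0.0214 ± 0.0186. LOXL2 thus exceeded LOX 21.2 times, LOXL1 exceeded LOXL3 20.1 times, and these neighbours did not overlap in any library. LOX and LOXL1 ranged from 8.15 to 16.5 and from 8.25 to 12.8 and did not differ beyond their spread. With the median length of the basic transcripts the level of LOX was 18.2, that of LOXL1 stayed at 10.0, and LOXL3 was at 0.719.

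**Figure D1:**
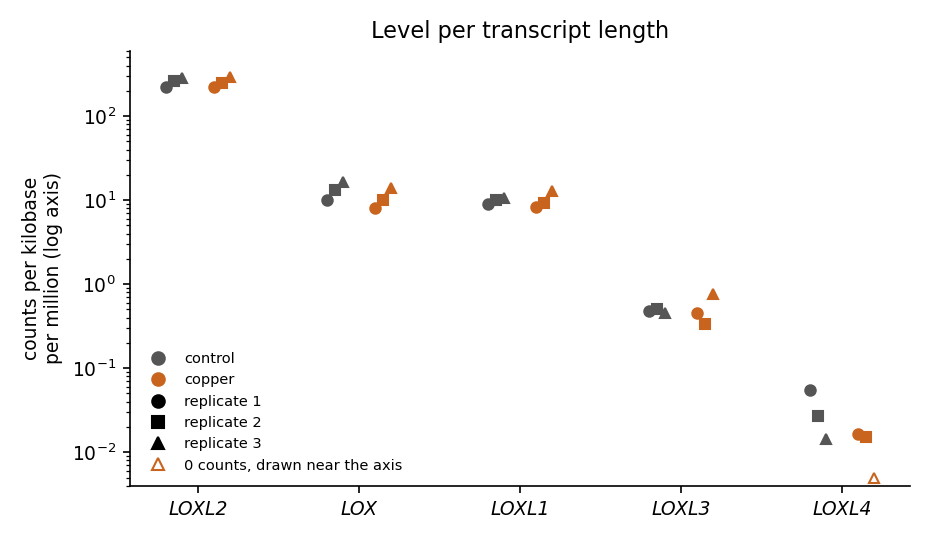
Level of each member in counts per kilobase of transcript per 1000000 counts, on a log axis, for 3 control (grey) and 3 copper (orange) libraries, with the marker shape giving the replicate. LOXL2 lies above 220 in all 6 libraries, LOX and LOXL1 share the range around 10.0, and LOXL4, with 0 counts in copper replicate 3 (open symbol), lies lowest.

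Per length, LOXL2 made up 92.3% ± 0.828 of the family in copper and 91.5% ± 0.444 in control (SD, n = 3 each). LOX made up 3.85% ± 0.505 and 4.70% ± 0.588, and LOXL1 3.65% ± 0.293 and 3.57% ± 0.143. The summed family level was 275 ± 41.8 in copper and 279 ± 35.2 in control, a difference smaller than the spread within either group. In such bulk RNA, fewer cells that express a gene and less of its RNA per cell cannot be told apart.

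No gene of the table was called between copper and control by edgeR's quasi-likelihood test without a replicate term (0 of 12944 tested, 0%, calls being made below an adjusted p of 0.05). Before adjustment 455 genes, 3.52%, had a p below 0.05 in that test, while limma-voom called 0 and DESeq2 27, 0.209%. With the replicate number as a block edgeR called 22 genes, 0.17%. No lysyl oxidase was among the genes called by any of these fits.

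LOX is the founding member, secreted as a proenzyme that is cut outside the cell (Entrez 4015; chromosome 5, 122063195 to 122077174, minus strand, in the table). Its level was 41.6, 50.6 and 72.0 CPM in copper replicates 1, 2 and 3 and 51.4, 66.9 and 84.3 CPM in control replicates 1, 2 and 3. Replicate 3 was the highest of both groups, the groups overlapped, and each copper library lay below the control library of its number, as it did for 17% of tested genes. The means were 54.8 ± 15.6 CPM in copper and 67.5 ± 16.4 CPM in control (SD, n = 3), and the pairs differed by -0.31, -0.40 and -0.23 on the log2 scale. Copper over control gave a log2 fold change of -0.30 (SE 0.24, 95% interval -0.86 to 0.26; adjusted p 1.00 by edgeR). Leaving out single libraries moved it from -0.55 without copper replicate 3 to -0.11 without control replicate 3, with -0.14 without copper replicate 1 and -0.47 without control replicate 1. With the replicate block the value was -0.31 (SE 0.09, interval -0.51 to -0.11), with an unadjusted p of 0.00696 and an adjusted p of 0.379 by edgeR, so that LOX was not called although its own interval left out 0. An unadjusted p under 0.05 with a lower value in copper was reached by 4.24% of genes in that fit.

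LOXL1 is known for its part in elastic fibre upkeep (Entrez 4016; chromosome 15, 73926462 to 73952136, plus strand). It stood at 19.4, 21.9 and 30.1 CPM in copper replicates 1, 2 and 3 and at 21.1, 23.7 and 25.2 CPM in control. The groups overlapped, and replicate 3 was again the highest of each. The fitted log2 fold change of 0.03 (SE 0.17, 95% interval -0.37 to 0.44) had an adjusted p of 1.00 by edgeR. The pairs went both ways, at -0.12, -0.11 and 0.25. Without copper replicate 3 the value was -0.17, and in replicates 1 and 2 alone -0.11.

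LOXL2, the abundant member, carries scavenger receptor repeats ahead of its catalytic domain (Entrez 4017; chromosome 8, 23296897 to 23404120, minus strand). It stood at 789, 874 and 1041 CPM in copper and at 783, 935 and 998 CPM in control. The groups covered nearly the same range and replicate 3 was the highest of both. The groups differed by -0.01 (SE 0.14, log2 scale; adjusted p 1.00 by edgeR). Its 95% interval ran from -0.34 to 0.33, and with the replicate block from -0.19 to 0.17. With 12937 to 19456 counts per library, counting error is small beside the difference between replicates.

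LOXL3, a relative of LOXL2 in domain layout, was detected at a low level (Entrez 84695; chromosome 2, 74532259 to 74549526, minus strand). It had 26, 21 and 50 counts in copper and 42, 36 and 30 in control, or 1.58, 1.18 and 2.70 CPM against 1.69, 1.76 and 1.57 CPM. Copper replicate 3 lay above every other library and copper replicate 2 below them. The log2 fold change of 0.12 (SE 0.32, adjusted p 1.00 by edgeR) became -0.27 without copper replicate 3 and -0.31 in replicates 1 and 2 alone.

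LOXL4 (Entrez 84171; chromosome 10, 98247691 to 98268194, minus strand) had 1, 1 and 0 counts in copper and 5, 2 and 1 in control and did not pass the filter. Pooled over libraries, 2 counts of 52312703 in copper and 8 of 65017781 in control gave a ratio of 0.311, with an exact 95% interval from 0.0321 to 1.56 that covers counting error only. A difference was not detectable at this depth.

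**Figure D2:**
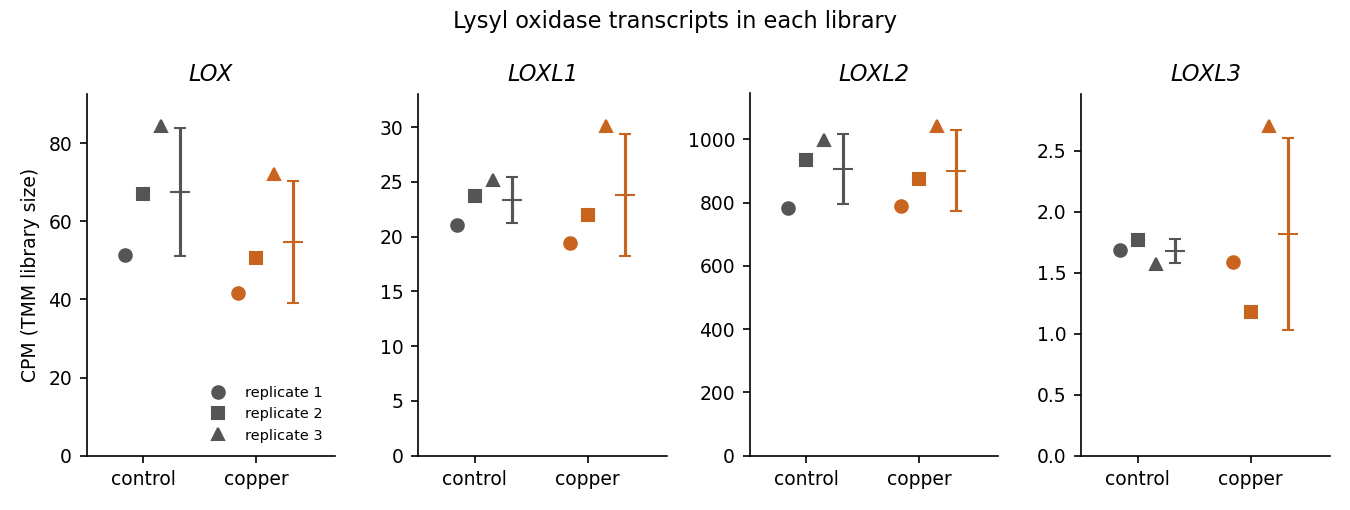
CPM of the 4 members that passed the filter in each library, with the marker shape giving the replicate and the bars the mean and SD of 3 libraries. Replicate 3 (triangles) is highest in both groups for LOX, LOXL1 and LOXL2, and only LOX has every copper library below the control library of its number.

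The spread between replicates was shared by 3 members. Copper replicate 3 exceeded the mean of copper replicates 1 and 2 by 1.56 times for LOX, 1.45 times for LOXL1 and 1.25 times for LOXL2. In control the same ratios were 1.42, 1.13 and 1.16. For LOXL3 the ratio was 1.95 in copper and 0.910 in control. Replicate 3 was the highest library of both groups for 30% of tested genes, so LOX, LOXL1 and LOXL2 share this order with many other genes.

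**Figure D3:**
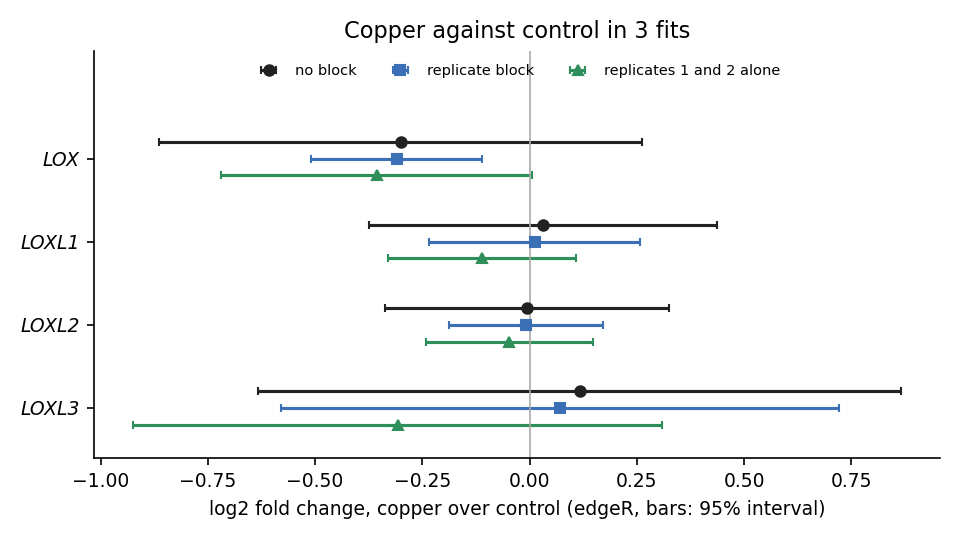
Log2 fold change of copper over control by edgeR for the 4 tested members, without a replicate term, with the replicate block, and in replicates 1 and 2 alone; bars are 95% intervals of single genes, not adjusted for the number of genes. The interval of LOX with the block, from -0.51 to -0.11, leaves out 0, and the other 11 intervals include it.

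A ratio within a library removes its scaling. LOX counts amounted to 5.27%, 5.79% and 6.92% of LOXL2 counts in copper replicates 1, 2 and 3 and to 6.57%, 7.15% and 8.44% in control. The copper value was lower at each replicate number, and copper replicate 3 lay above control replicate 1, so the groups overlapped (6.0% ± 0.842 and 7.39% ± 0.960, SD, n = 3). LOXL1 counts amounted to 2.62% ± 0.235 of LOXL2 counts in copper and 2.58% ± 0.0949 in control, which differed by less than the spread.

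**Figure D4:**
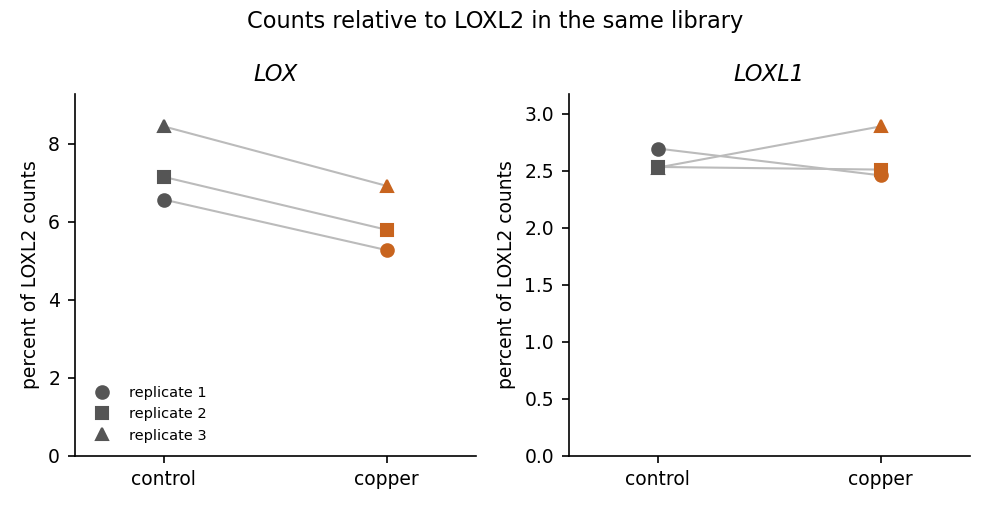
LOX and LOXL1 counts as a percent of LOXL2 counts in the same library, with grey lines joining libraries of the same replicate number. The 3 LOX lines fall from control to copper, from 6.57%, 7.15% and 8.44% to 5.27%, 5.79% and 6.92%, while the LOXL1 lines go both ways.

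Across the 6 libraries, log2 CPM of LOX followed that of LOXL2 (Pearson r = 0.90) and LOXL1 (0.83) more closely than that of LOXL3 (0.43), and LOXL1 and LOXL2 had r = 0.93. These describe 6 points that share the step to replicate 3. Among 10288 other genes with at least 5 CPM, those most like LOX were SYVN1 (r = 0.99), a ubiquitin ligase of the endoplasmic reticulum, KDM5C (0.99), a histone demethylase, and ANO8 (0.99). For LOXL1 they were TMEM132A, EMC9 and AKAP8L, and for LOXL2 SLC9A3R2, the interleukin 6 receptor gene IL6R and the kinase gene MARK4. For LOXL3 they included FAAP100 and ZNF408. Each of these was picked as among the highest of 10288 values over 6 libraries. The lower bar of 0.9 was exceeded by 289 genes for LOX and 673 for LOXL1.

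Genes that overlap a member in the table lie on the opposite strand, and since the use of strand in counting is not given in the sources used here, their reads cannot be told apart with certainty. LOXL1-AS1, which overlaps LOXL1 by 1787 bases, was at 8.62 ± 0.713 CPM in copper and 9.04 ± 1.02 in control. HTRA2, a mitochondrial protease gene that overlaps LOXL3 by 1298 bases, was at 19.5 ± 3.45 and 19.6 ± 1.89. LOC100507156, inside LOXL2, was at 9.77 ± 0.626 CPM in copper and 11.3 ± 0.786 in control, a log2 fold change of -0.21 (SE 0.13, adjusted p 1.00 by edgeR). Its groups did not overlap, and 5.35% of all tested genes were lower in copper without overlap.

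Of 8 substrate genes, collagens and elastin, 5 were tested. All 5 had a log2 fold change below 0, as did 6292 of the 12944 genes tested. The median of the 5 was -0.36, against 0.0051 over all genes. That median was -0.14 without copper replicate 3 and -0.16 without control replicate 2. None was called, with or without the block. Most counts of this list fell on the collagen IV chains. COL4A1 was at 622 ± 143 CPM in copper and 777 ± 147 in control, a log2 fold change of -0.32 (SE 0.20). With the block COL4A1 was at -0.33 (SE 0.10, adjusted p 0.430 by edgeR). COL4A2 was at 812 ± 111 and 866 ± 111 CPM (-0.09, SE 0.14). COL5A1, a chain of fibrillar collagen V, was at 3.17, 4.43 and 3.94 CPM in copper replicates 1, 2 and 3 and at 6.07, 7.45 and 6.76 CPM in control. These groups did not overlap, and 5.35% of all tested genes were lower in copper without overlap. The COL5A1 difference of -0.79 (SE 0.18, log2 scale) had an adjusted p of 0.804 by edgeR, and of 0.114 with the block. COL1A1, named after its values were seen, was lower in each pair, as were 17% of tested genes. Its pairs were at -0.91, -1.23 and -0.65 on the log2 scale (adjusted p 0.130 by edgeR with the block). In the blocked fit corrected for transcript length and GC content, which called 1.65% of genes, COL1A1 and COL5A1 were called lower (adjusted p 0.0267 and 0.0292 by edgeR). Elastin, at 0.208 and 0.189 CPM, and 2 further collagen genes did not pass the filter.

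Of 12 genes for propeptide cleavage and extracellular partners, 8 were tested, 5 higher and 3 lower, with a median of 0.07 and 0 called. The median was -0.11 without copper replicate 3, -0.05 without control replicate 1, 0.21 without copper replicate 2 and 0.15 without control replicate 3. Fibronectin (FN1), which binds the LOX proenzyme and its protease, was at 1700 ± 692 CPM in copper and 1345 ± 252 in control, a log2 fold change of 0.34 (SE 0.29). THBS1 (-0.18, SE 0.40) and LTBP4 (0.10, SE 0.33), a latent TGF-beta binding protein, also varied more between replicates than between groups. BMP1, the protease that releases active LOX, was at 82.2 ± 14.3 and 79.9 ± 7.46 CPM, chosen here for that role after its values were seen.

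Copper supply to the secretory pathway had 4 of 5 genes tested, 1 higher and 3 lower, with a median of -0.18 and 0 called. The median was -0.09 without copper replicate 3, -0.06 in replicates 1 and 2 alone and -0.29 without copper replicate 2. ATP7A, the pump that loads these enzymes, was named for that role after its values were seen. It was at 19.0, 17.4 and 10.8 CPM in copper replicates 1, 2 and 3 and at 20.1, 19.4 and 23.1 CPM in control. Its groups did not overlap, though copper replicate 1 lay close to control replicate 2, and copper replicate 3 lay farthest below. Of all tested genes, 5.35% were lower in copper without overlap. For ATP7A the log2 fold change was -0.40 (SE 0.21, adjusted p by edgeR 1.00, and 0.593 with the block) but -0.12 in replicates 1 and 2 alone. The importer SLC31A1 was at 124 ± 11.4 CPM in copper and 133 ± 8.56 in control, the chaperone ATOX1 at 38.3 ± 7.62 and 33.3 ± 0.801, and the pump ATP7B at 23.6 ± 4.62 and 28.3 ± 2.64. Among 12 of 13 tested genes that modify and fold collagen, 3 were higher and 9 lower, with a median of -0.03 and 0 called; with 1 library left out the median ran from -0.13 (without copper replicate 3) to 0.04 (without control replicate 3). The lysyl hydroxylase PLOD2, which prepares lysines for cross-linking, was at 1440 ± 250 and 1671 ± 72.6 CPM (log2 fold change -0.21, SE 0.14). P4HB (-0.02, SE 0.14), a subunit of prolyl hydroxylase, and the collagen galactosyltransferase COLGALT1 (-0.08, SE 0.10) differed less.

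Of 14 upstream regulators, 13 were tested and 12 had a log2 fold change below 0, with a median of -0.19 and 0 called. For 3 of the 13 the groups did not overlap, while 5.35% of all tested genes were lower in copper without overlap. These 3, ARNT, SMAD2 and SMAD4, were lower in copper and are named after their values were seen. The gap of SMAD2 was narrow, from 89.98 to 90.02 CPM. Over all genes tested, 6292 of 12944 were below 0 and the median was 0.0051. EPAS1, the hypoxia-inducible factor subunit that 786-O relies on, was at 308, 334 and 406 CPM in copper and 374, 381 and 441 CPM in control. Every copper library lay below the control library of its number, as for 17% of tested genes. Replicate 3 was the highest of both groups, as for 30% of tested genes, and the groups overlapped. The log2 fold change of EPAS1 was -0.19 (SE 0.13, adjusted p 1.00 by edgeR). With the block it was -0.20 (SE 0.08, adjusted p 0.573 by edgeR). In replicates 1 and 2 alone it was -0.23 (SE 0.06, adjusted p 0.112 by edgeR). A relation of EPAS1 to LOX was not tested. The ligand TGFB2 differed by -0.20 (SE 0.43, log2 scale), with pairs at 0.12, -0.21 and -0.91. SMAD3, a signal carrier of the TGF-beta pathway, was at -0.19 (SE 0.27) and at -0.20 (SE 0.09, adjusted p 0.593 by edgeR) with the block, with pairs at -0.36, -0.08 and -0.16. SNAI1, a repressor known to bind LOXL2, was named after its values were seen. Its groups overlapped, at 39.7 ± 14.3 CPM in copper and 51.7 ± 12.7 in control (log2 fold change -0.38, SE 0.28). It was not called without the block or with it (adjusted p 0.325 by edgeR with the block). Only the corrected blocked fit, which called 1.65% of genes, called it lower (adjusted p 0.0178 by edgeR). In replicates 1 and 2 alone, where 0.856% of genes were called, TGFB1 was called lower (log2 fold change -0.35, adjusted p 0.0133 by edgeR), whereas in replicate 3 it was higher in copper, at 278 against 245 CPM. Without copper replicate 3 the median of this list was -0.0903.

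Of 11 other copper enzymes of the secretory pathway, 6 were tested, 3 higher and 3 lower, with a median of 0.03 and 0 called; with 1 library left out it ran from -0.03 (without control replicate 1) to 0.10 (without copper replicate 3). The peptide amidating enzyme PAM was at 390 ± 22.2 CPM in copper and 397 ± 14.4 in control, and the monooxygenase-like MOXD1 at 176 ± 22.2 and 166 ± 14.1. Ceruloplasmin (CP), a copper ferroxidase, was at 50.6, 76.6 and 42.8 CPM in copper and at 32.8, 39.7 and 34.6 CPM in control. Its groups did not overlap, while 5.45% of all tested genes were higher in copper without overlap. The difference was 0.67 (SE 0.21, log2 scale). The adjusted p by edgeR came to 1.00 with no block, 0.154 with it and 0.00438 in the corrected blocked fit. In that last fit LOX was at -0.24 and LOXL2 at -0.01, and no lysyl oxidase was called (adjusted p from 0.236 to 0.952 by edgeR).

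**Figure D5:**
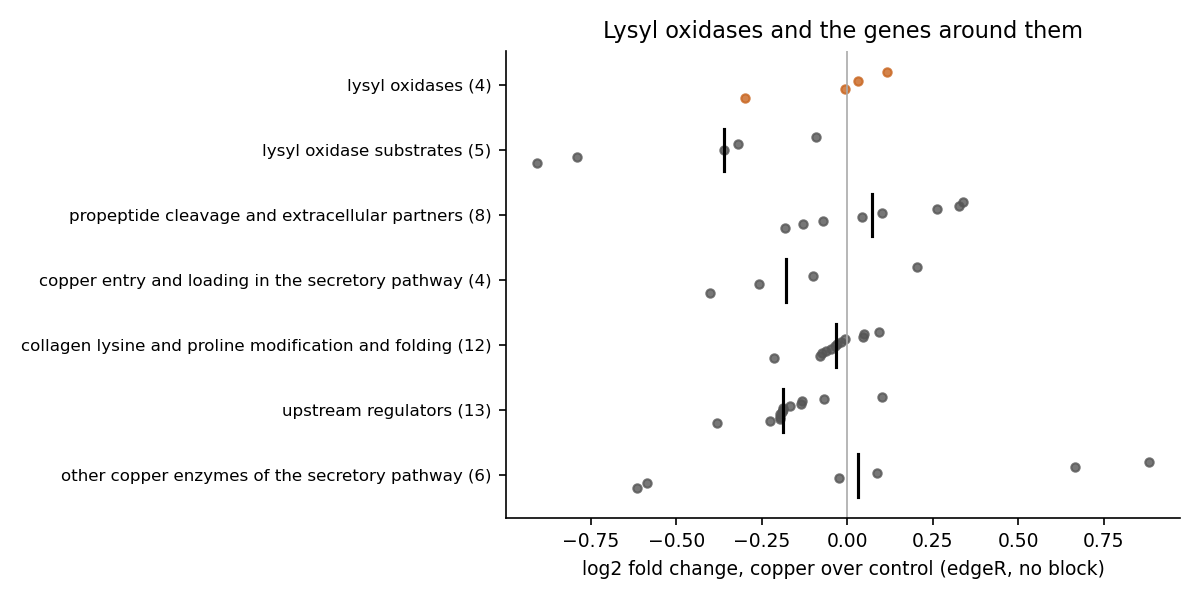
Log2 fold change of copper over control (edgeR, no replicate block) for each tested gene of the lysyl oxidase family (orange) and of 6 lists around it (grey), with the number of tested genes in brackets and a bar at each grey list's median. The 5 substrate genes lie below 0, as do 12 of 13 regulators, and the lysyl oxidases lie between -0.30 and 0.12. Of all 12944 genes tested, 6292 were below 0.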

How the data were processed

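Per the file header, the deposited table holds raw counts per gene in 6 libraries, made from total RNA with a directional kit per the labels' protocols. STAR, FastQC, edgeR and GRCh38 are named in the submitters' processing notes; the counting program, its annotation and its use of strand are not given in the sources used here. Rows lacking a gene symbol (5, with 0.000814% of counts) were dropped. Table starts were 1 below RefSeq for 69.2% of 25547 matched genes, so 1 was added to printed starts.

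The analysis used edgeR 4.0.16 under R 4.3.3: filterByExpr (minimum count 10, minimum total 15), TMM scaling, the robust quasi-likelihood test over all 12944 genes and Benjamini-Hochberg adjustment, called under 0.05. A prior count of 2 entered the log2 fold changes. The SE was the size of the test's own log2 fold change divided by the square root of its F statistic. Intervals use this SE and the degrees of freedom of the test. They are centred on the printed log2 fold change with its prior count, so interval and p-value can disagree, mainly at low counts. DESeq2 1.42.0 and limma 3.58.1 were alternatives. Lengths and GC content came from GENCODE 29 (99.2% of tested genes). Simulated counts with known changes served to check the code.

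Groups share replicate numbers 1 to 3, which the labels do not tie to a day or batch. Deviations from the group means of same-numbered libraries correlated at 0.46, 0.40 and 0.65 across genes, above the minimum of 0.1 set for pairing, largely through replicate 3. Copper replicate 1 with control replicate 2 (0.32) and copper replicate 2 with control replicate 1 (0.27) also passed it. This minimum therefore cannot show that replicates 1 and 2 are paired by number. Libraries of a group differed by at least 5.42 times the chi-square expected from sampling noise.

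Members and lists were chosen with earlier results of these data known. Named were the members, genes overlapping them, the 3 most abundant tested genes of each list with any called without or with the block, and the 3 genes of at least 5 CPM most correlated with each tested member, of which 1 is not reported here.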

Additional observations from a re-analysis of the deposited data

How the results depend on the processing

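Across 15 alternatives LOX stayed lower in copper and was not called, from -0.548 without copper replicate 3 to -0.111 without control replicate 3. LOXL1, LOXL2 and LOXL3 were not called under any of them, and their direction was not stable. LOXL1 was at -0.0419 in the blocked fit corrected for length and GC content, at -0.111 in replicates 1 and 2 alone, and from -0.171 to 0.155 with 1 library left out. LOXL2 was at 0.0201 with upper-quartile scaling, which put the median over all tested genes at 0.0279, and from -0.123 to 0.0793 with 1 library left out. LOXL3 was at -0.308 in replicates 1 and 2 alone and from -0.269 to 0.339 with 1 library left out. LOXL4 stayed lower in the 8 settings that gave it a value. The count of called genes, 0, became 22 with the replicate block and 214 in the corrected blocked fit. It was 12 with no filter, 27 by DESeq2, 111 in replicates 1 and 2 alone, and 0 to 15 with 1 library left out (15 without copper replicate 3). The corrected blocked fit called 2 substrate genes, 1 regulator and 1 other copper enzyme, and in replicates 1 and 2 alone 1 regulator was called. The median of the regulators was -0.115 in replicates 1 and 2 and from -0.197 to -0.0903 with 1 library left out. The replicate block changed no call of a member or a listed gene. Why these values moved was not tested.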
